A study of Saccharomyces cerevisiae with 12 samples.

Results

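Ribosome footprints of cells that make the RNA helicase Dbp1 in place of Ded1 were compared with those of cells that make Ded1, gene by gene. The comparison rests on 4 of the 12 libraries of the series, 2 footprint libraries of each genotype, and covers the 4830 of 6159 gene IDs whose footprints averaged at least 5 RPKM over the 6 footprint libraries. RPKM is reads per kilobase of gene, scaled to the depth of the library. All cells were budding yeast, Saccharomyces cerevisiae of the SK1 strain, in exponential mitotic growth in rich medium (YEPD) at 30 °C, harvested at an optical density of 0.6 after 1 minute in 100 µM cycloheximide, a drug that stops ribosomes on the mRNA. In the Dbp1 genotype the regulatory regions of DED1 drove DBP1, in 2xDbp1 they drove 4 copies of DBP1, and in Ded1 they drove DED1 itself. The extra copies were meant, per the design text, to bring the level of one helicase to that of the other. The 2xDbp1 libraries are not one side of the comparison, but they share in its estimate of the spread, and their values stand beside the others where they help. The labels do not say whether libraries of a genotype came from separate cultures, so every p-value measures only the spread between these samples.

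Ded1 and its paralog Dbp1 are helicases of the DEAD-box family, enzymes that use ATP to open structured RNA. Ded1 acts in translation initiation, where it helps the small ribosomal subunit to attach to an mRNA and to scan its leader for a start codon, and Dbp1 can stand in for part of that work. A footprint is the stretch of mRNA that a ribosome shields from nuclease, here selected at 28 to 31 nt. The number of footprints on a gene reflects both how much of its mRNA there is and how many ribosomes sit on each copy, and footprints alone cannot separate these. In growing yeast many ribosomes work on genes for glycolysis and for the ribosome itself, while genes for stress protection, storage carbohydrates and respiration are kept low in glucose.

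The steps between low values give a depth of 9.71 and 10.79 M reads for the Dbp1 libraries, 11.56 and 12.67 M for 2xDbp1, and 8.7 and 13.11 M for Ded1. This depth is inferred, and at 5 RPKM it means 43.5 to 65.6 reads on 1 kb. Replicates differed by a median of 0.13 on the log2 scale in Dbp1 and 0.12 in Ded1. Markers of other cell states were low. Of 34 meiotic and sporulation genes, 32 lay under the 5 RPKM filter, and their summed level was 34.7 to 49.9 RPKM in Dbp1 and 37.1 to 41.7 RPKM in Ded1. Of 26 haploid-specific and mating genes, 21 lay under it, with sums of 66.0 to 67.8 RPKM in Dbp1 and 63.4 to 65.5 RPKM in Ded1. MFA2, a gene for the a-factor pheromone, had 1.81 and 3.25 RPKM in Dbp1 and was listed at 0 in both Ded1 and both 2xDbp1 libraries. It averaged 0.84 RPKM over the 6 libraries, far under the filter, so the main comparison did not test it. With no filter MFA2 was called (log2 fold change +1.79, limma adjusted p = 0.0263), but values this low rest on few reads.

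Footprints of 160 genes differed between Dbp1 and Ded1 (limma on log2(RPKM + 1), Benjamini-Hochberg adjusted p under 0.05 over all 4830 genes), which is 3.31% of those tested. Of these, 117 were higher in Dbp1 (2.42%) and 43 were lower (0.89%). Apart from the 2 helicase genes, 50 of the 116 higher genes and 9 of the 42 lower genes changed at least 2-fold. The median log2 fold change was +0.90 among the higher genes and -0.57 among the lower genes, against 0.00 over all genes, of which 90% lay between -0.35 and +0.53. Because 1 RPKM was added before taking logs, log2 fold changes understate the difference for genes of low level. The 116 higher genes took 2.28% and 2.18% of summed RPKM in Dbp1, against 1.19% and 1.39% in Ded1. Nearly all of the most abundant footprints, those of glycolytic and ribosomal protein genes, lay close to 0 in the plot of fold change against level. Exceptions were AHP1 and HOR7. AHP1, a thiol peroxidase, was found with 9530 and 10651 RPKM in Dbp1 and 6293 and 7118 RPKM in Ded1 (log2 fold change +0.59, SE 0.09, limma adjusted p = 0.0243). HOR7, a gene named for its response to high osmolarity, had 7735 and 7878 RPKM in Dbp1 and 3449 and 4762 RPKM in Ded1 (+0.95, adjusted p = 0.0351).

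**Figure D1:**
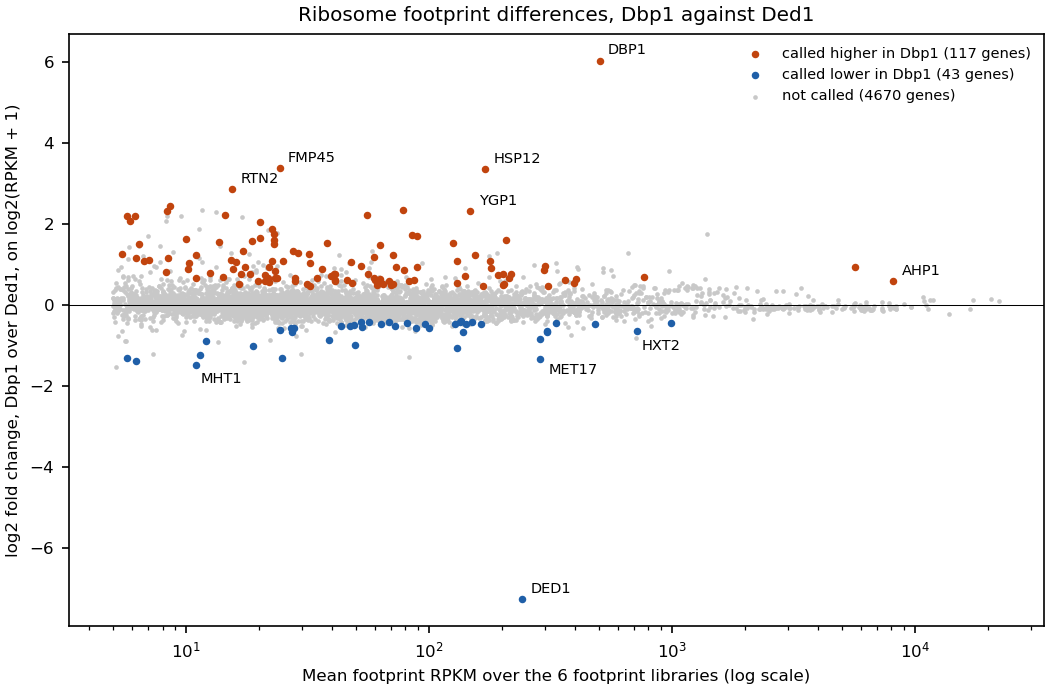
Each point is 1 of the 4830 tested genes, with its mean footprint RPKM over the 6 libraries on the x axis (log scale) and the log2 fold change of Dbp1 over Ded1 on the y axis. The 117 genes called higher in Dbp1 (orange) reach further from 0 than the 43 called lower (blue), DBP1 and DED1 aside.

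Calls depended on which libraries entered. The count was 22 without Ded1 replicate 1, 42 without Dbp1 replicate 1 and 245 without Dbp1 replicate 2. All 160 genes kept their sign in every leave-one-out fit, and 18 kept their call in every alternative that tested them. Those 18 were DBP1 and DED1, FMP45, RTC3, RTN2, TSL1, PGM2, GSY2, IGD1, GLK1, GAD1, NNR2, YNL194C, YOL153C and YCL042W, which overlaps GLK1, among genes that differed by at least 1.18 on the log2 scale, and MET17, MET2 and ATF1 among the lower genes. Among the 116 higher genes, Dbp1 replicate 1 exceeded replicate 2 in 93, by a median ratio of 1.14, against 1.02 over all genes. At the edge of the threshold, QDR2 was called (adjusted p = 0.0493 in limma) and TSA2 was not (adjusted p = 0.0508). At the edge of the filter, ANB1 averaged 5.01 RPKM and was tested, and SYT1 averaged 4.99 RPKM and was not.

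The helicase genes followed the genotype labels. DBP1 footprints were 573 and 571 RPKM in Dbp1, 921 and 943 RPKM in 2xDbp1, and 8.14 and 7.36 RPKM in Ded1 (Dbp1 over Ded1, log2 fold change +6.04, SE 0.08, limma adjusted p = 2.03e-07). DED1 footprints were 2.97 and 4.51 RPKM in Dbp1, 3.23 and 2.41 RPKM in 2xDbp1, and 710 and 730 RPKM in Ded1 (log2 fold change -7.27, SE 0.17, limma adjusted p = 4.83e-06). The strains were built to differ at both genes, and since paralogs can share reads, the low values are uncertain.

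Of the 15 largest increases plotted gene by gene, FMP45, HSP12, RTN2, YRO2, YGP1, RTC3 and MSC1 are given first. The other 8 act in metabolism or respiration: GPH1, PGM2, TSL1, TDH1, CYC7, GSY2, SOL4 and FAA1. FMP45 encodes a membrane protein of the SUR7 family, which sits in eisosomes, the furrows of the yeast plasma membrane. It had 60.9 and 50.3 RPKM in Dbp1, 12.6 and 12.6 RPKM in 2xDbp1, and 3.04 and 6.22 RPKM in Ded1 (Dbp1 over Ded1, log2 fold change +3.38, SE 0.26, limma adjusted p = 0.00376). Both Dbp1 libraries lay far above both Ded1 libraries, and the 2xDbp1 libraries lay between. Its relative YNL194C had 13.8 and 11.2 RPKM in Dbp1, against 1.63 and 2.25 RPKM in Ded1 (+2.19, adjusted p = 0.00394). RTC3 had 107 and 99.7 RPKM in Dbp1, 35.1 and 47.5 RPKM in 2xDbp1, and 20.0 and 23.2 RPKM in Ded1 (+2.21, adjusted p = 0.00276). It varied far less between replicates than HSP12, a small heat shock protein that binds membranes, which had 538 and 256 RPKM in Dbp1 and 19.2 and 65.2 RPKM in Ded1 (+3.35, adjusted p = 0.0321). Likewise YGP1, a secreted glycoprotein, had 400 and 152 RPKM in Dbp1 and 40.4 and 58.9 RPKM in Ded1 (+2.32, adjusted p = 0.0398). YRO2, a plasma membrane protein of the Hsp30 family, had 199 and 75.6 RPKM in Dbp1 and 25.0 and 21.8 RPKM in Ded1 (+2.35, adjusted p = 0.034). For HSP12, YGP1 and YRO2, replicate 1 of Dbp1 was more than 2-fold above replicate 2. The rule that picked the 15 genes required that Dbp1 and Ded1 libraries not overlap, so their separation adds no support. RTN2, a reticulon that curves membranes of the endoplasmic reticulum, had 42.9 and 23.0 RPKM in Dbp1 and 3.28 and 3.67 RPKM in Ded1 (+2.86, adjusted p = 0.00556). RTN1, its abundant paralog, did not pass, with 966 and 910 RPKM in Dbp1 and 938 and 919 RPKM in Ded1 (+0.01, adjusted p = 0.938). MSC1 had 45.4 and 30.9 RPKM in Dbp1 and 6.90 and 9.93 RPKM in Ded1 (+2.05, adjusted p = 0.00894). SOL4, a 6-phosphogluconolactonase of the pentose phosphate pathway, had 23.6 and 13 RPKM in Dbp1 and 4.87 and 5.06 RPKM in Ded1 (+1.63, adjusted p = 0.0424).

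**Figure D2:**
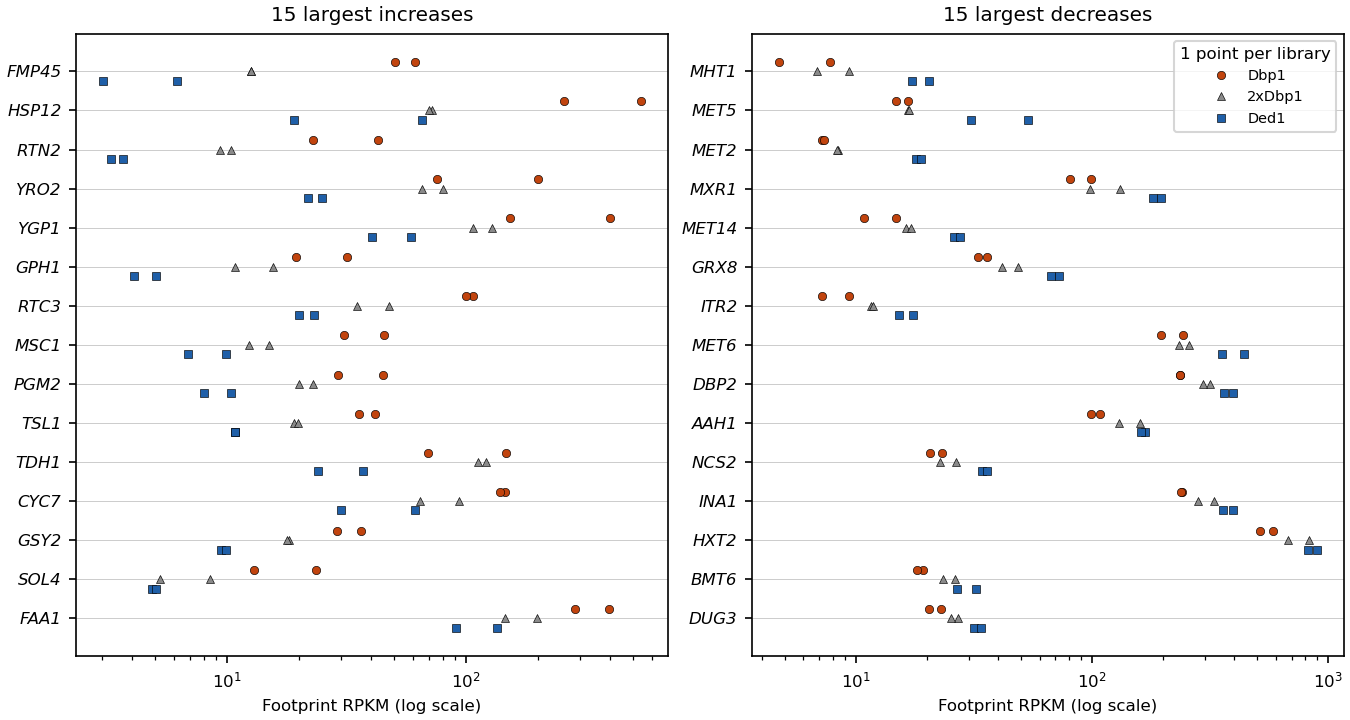
Footprint RPKM (x axis, log scale) of the 15 largest increases and 15 largest decreases among called genes with a mean of at least 10 RPKM, 1 point per library (orange circles, Dbp1; grey triangles, 2xDbp1; blue squares, Ded1). Dbp1 and Ded1 libraries overlap in none of the 30 genes, which the choice of genes required, and FMP45 and RTN2 show the widest gaps relative to their level.

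The wider list of membrane and stress-linked proteins, many of them targets of the stress transcription factors Msn2 and Msn4, stood higher in Dbp1. Of the 42 tested, 26 rose and 0 fell, while 16 did not pass, against 2.42% of all genes called higher. In 40, both Dbp1 libraries lay above both Ded1 libraries, against 25.1% of all genes. The list was chosen with earlier results of these data known, so these counts describe it and do not test it. The median log2 fold change was +1.01, against 0.00 over all genes, and 8 further members lay under the filter. Summed over the list, footprints were 8597 and 7552 RPKM in Dbp1, 5958 and 6070 RPKM in 2xDbp1, and 4782 and 5256 RPKM in Ded1. Dbp1 replicate 1 exceeded replicate 2 in 37 of the 42. Leaving out Dbp1 replicate 1 reduced the number that rose to 11. It was 3 with Ded1 replicate 1 left out, 12 with Ded1 replicate 2 left out, and 10 with either 2xDbp1 library left out.

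Among the other members that rose, some lay at very low levels in Ded1. DCS2, a paralog and regulator of the decapping scavenger DCS1, had 20.6 and 12.2 RPKM in Dbp1 and 1.84 and 2.44 RPKM in Ded1 (+2.43, limma adjusted p = 0.00748). SPI1, a cell wall protein anchored by a lipid, had 13.8 and 9.57 RPKM in Dbp1 and 1.78 and 2.2 RPKM in Ded1 (+2.08, adjusted p = 0.0134). Both genes were thus scarce in Ded1 and modest in Dbp1. Other members had more footprints in both genotypes. STF1, a stabiliser of the inhibitor that holds the mitochondrial ATP synthase, had 248 and 189 RPKM in Dbp1 and 93.8 and 88.8 RPKM in Ded1 (+1.24, adjusted p = 0.00894). HSP42, a cytosolic small heat shock protein, had 41.0 and 56.0 RPKM in Dbp1 and 21.3 and 17.9 RPKM in Ded1 (+1.25, adjusted p = 0.0166). Here Dbp1 replicate 2 was the higher one, unlike most of the list. Among those that did not pass, SIP18 had 28.6 and 12.4 RPKM in Dbp1 and 1.28 and 7.20 RPKM in Ded1 (+2.20, adjusted p = 0.0997), and DDR2 had 35.9 and 14 RPKM in Dbp1 and 5.47 and 5.45 RPKM in Ded1 (+1.86, adjusted p = 0.0799). Their replicates were far apart.

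All 3 enzymes of the GABA shunt, a bypass that turns glutamate into succinate, rose. GAD1, glutamate decarboxylase, had 36.5 and 34.2 RPKM in Dbp1, 20.7 and 22.7 RPKM in 2xDbp1, and 10.5 and 13.5 RPKM in Ded1 (+1.49, SE 0.13, limma adjusted p = 0.00445). UGA1, the transaminase, had 76.1 and 68.2 RPKM in Dbp1 and 37.7 and 46.4 RPKM in Ded1 (+0.77, adjusted p = 0.0429). UGA2, the last dehydrogenase, had 29.5 and 23.9 RPKM in Dbp1 and 17.4 and 15.3 RPKM in Ded1 (+0.67, adjusted p = 0.0437). The genes share a list but not a level, and the GAD1 call held in every alternative while those of UGA1 and UGA2 did not pass without either Ded1 library, without Dbp1 replicate 1 or without either 2xDbp1 library. Of the glycerol branch, GPP2, glycerol-3-phosphatase, had 254 and 201 RPKM in Dbp1 and 114 and 127 RPKM in Ded1 (+0.90, adjusted p = 0.0231). GPD1, glycerol-3-phosphate dehydrogenase, had 445 and 382 RPKM in Dbp1 and 282 and 255 RPKM in Ded1 (+0.62, adjusted p = 0.0321).

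Genes that make and break glycogen and trehalose, the storage carbohydrates of yeast, were higher in Dbp1 on both the synthetic and the degradative side. Of 17 tested members, 10 rose, 0 fell and 7 did not pass, against 2.42% of all genes called higher. The median log2 fold change was +0.67, and 5 more members lay under the filter. Dbp1 replicate 1 exceeded replicate 2 in 13 of the 17, against 2733 of the 4830 genes tested. On the trehalose side, TSL1, a regulatory subunit of trehalose synthase, had 41.8 and 35.7 RPKM in Dbp1, 19.1 and 19.9 RPKM in 2xDbp1, and 10.8 and 10.8 RPKM in Ded1 (+1.75, SE 0.11, limma adjusted p = 0.00156). TPS1, the synthase subunit proper, had 239 and 250 RPKM in Dbp1 and 143 and 148 RPKM in Ded1 (+0.75, adjusted p = 0.00894), and TPS2, the phosphatase, had 72.2 and 73.5 RPKM in Dbp1 and 47.5 and 43.1 RPKM in Ded1 (+0.67, adjusted p = 0.0206). The other regulatory subunit, TPS3, had 47.2 and 42.8 RPKM in Dbp1 and 44.6 and 40.1 RPKM in Ded1, and did not pass (+0.09, adjusted p = 0.638). NTH1, neutral trehalase, which breaks trehalose down, had 51.8 and 51.0 RPKM in Dbp1 and 32.2 and 34.1 RPKM in Ded1 (+0.62, adjusted p = 0.0177). The 4 trehalose genes that rose did so with replicates close together.

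On the glycogen side, GSY2, the main glycogen synthase, had 36.4 and 28.9 RPKM in Dbp1, 18.2 and 17.8 RPKM in 2xDbp1, and 9.44 and 9.97 RPKM in Ded1 (+1.64, SE 0.13, limma adjusted p = 0.00376). GLC3, the branching enzyme, had 15 and 12.7 RPKM in Dbp1 and 6.77 and 5.64 RPKM in Ded1 (+1.04, adjusted p = 0.0177). Footprints of the genes that release glucose from glycogen were higher too. GPH1, glycogen phosphorylase, had 31.9 and 19.4 RPKM in Dbp1 and 4.08 and 5.07 RPKM in Ded1 (+2.22, adjusted p = 0.0124), and GDB1, the debranching enzyme, had 13.4 and 8.29 RPKM in Dbp1 and 2.88 and 3.29 RPKM in Ded1 (+1.51, adjusted p = 0.0249). IGD1, an inhibitor of Gdb1, had 23.8 and 20.2 RPKM in Dbp1 and 6.53 and 7.22 RPKM in Ded1 (+1.54, adjusted p = 0.00384). PGM2, the phosphoglucomutase that feeds both pathways, had 44.9 and 29.1 RPKM in Dbp1, 22.9 and 20.1 RPKM in 2xDbp1, and 10.4 and 8.0 RPKM in Ded1 (+1.87, adjusted p = 0.011). The other isozyme, PGM1, had 66.3 and 73.5 RPKM in Dbp1 and 86.1 and 83.8 RPKM in Ded1 (-0.28, adjusted p = 0.12). In all 10 called genes of the list the 2xDbp1 libraries lay between the other genotypes. Without Ded1 replicate 1, 4 members passed, against 6 without Dbp1 replicate 1, Ded1 replicate 2 or either 2xDbp1 library.

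**Figure D3:**
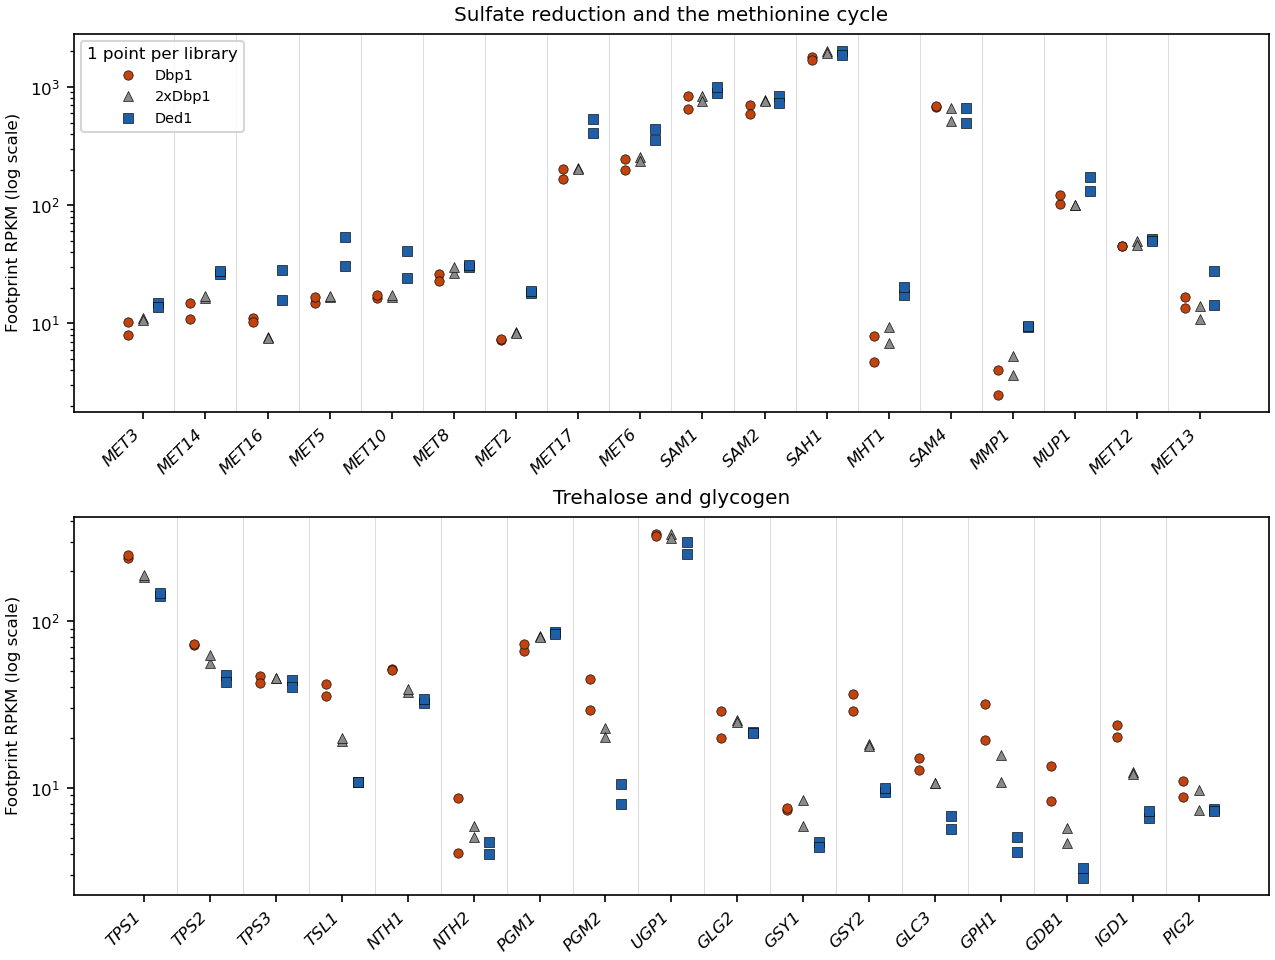
Footprint RPKM (y axis, log scale) of genes of sulfate reduction and the methionine cycle (top) and of trehalose and glycogen metabolism (bottom), 1 point per library (orange circles, Dbp1; grey triangles, 2xDbp1; blue squares, Ded1). MET2, MET17 and MHT1 are lower in Dbp1 and 2xDbp1 than in Ded1, and TSL1, PGM2, GSY2, GPH1 and IGD1 descend from Dbp1 over 2xDbp1 to Ded1.

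Of 24 tested genes of glycolysis and fermentation, 4 rose, 0 fell and 20 did not pass (median +0.12), against 2.42% of all genes called higher. GLK1, glucokinase, had 201 and 170 RPKM in Dbp1, 131 and 128 RPKM in 2xDbp1, and 70.1 and 57.1 RPKM in Ded1 (+1.53, SE 0.13, limma adjusted p = 0.00394). YCL042W, which overlaps GLK1, had nearly the same fold change (+1.49), and the reads of these 2 genes cannot be told apart. GPM2, a homolog of phosphoglycerate mutase, had 34.8 and 24.4 RPKM in Dbp1 and 13.1 and 13.2 RPKM in Ded1 (+1.09, adjusted p = 0.0243), and PYK2, a minor pyruvate kinase, had 39.1 and 35.3 RPKM in Dbp1 and 25.0 and 26.8 RPKM in Ded1 (+0.50, adjusted p = 0.0478). TDH1, the least abundant of 3 glyceraldehyde-3-phosphate dehydrogenases, had 147 and 69.7 RPKM in Dbp1, 112 and 121 RPKM in 2xDbp1, and 37.0 and 24.1 RPKM in Ded1 (+1.73, adjusted p = 0.0493). Its replicates were far apart, and the call ended in 9 of the 14 alternatives, as did that of PYK2 in 10 and that of GPM2 in 6. For TDH1, reads shared with its near-identical paralogs could not be separated. TDH3, the abundant paralog of TDH1, had 21773 and 24568 RPKM in Dbp1 and 22246 and 20947 RPKM in Ded1 (+0.10, adjusted p = 0.528). Outside glycolysis, PYC1, a pyruvate carboxylase, rose, with 298 and 204 RPKM in Dbp1 and 102 and 131 RPKM in Ded1 (+1.08, adjusted p = 0.0435). HXT2, a high-affinity glucose transporter, fell, with 517 and 584 RPKM in Dbp1 and 896 and 823 RPKM in Ded1 (-0.64, adjusted p = 0.0429). Neither call held with no filter, with the 4 compared libraries alone, with no trend in the prior variance or with a replicate block. The other 9 tested genes for hexose transporters and glucose sensing did not pass, and 0.89% of all genes were called lower.

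Mitochondrial genes stood higher in Dbp1, but by an amount that 1 library set. All 34 tested genes for respiratory chain subunits and the ATP synthase had a positive log2 fold change (median +0.37), against 50.8% of all genes. Of these 34, 2 passed, against 2.42% of all genes called higher. INH1, the ATPase inhibitor, had 1012 and 880 RPKM in Dbp1 and 564 and 601 RPKM in Ded1 (+0.70, limma adjusted p = 0.0202). COX5B, the low-oxygen form of a cytochrome oxidase subunit, had 30.7 and 31.6 RPKM in Dbp1 and 18.0 and 20.4 RPKM in Ded1 (+0.67, adjusted p = 0.0206). Dbp1 replicate 1 was the higher one in 33 of the 34 genes. Measured against the mean of the Ded1 libraries, the median member stood 0.56 higher in Dbp1 replicate 1, 0.18 higher in Dbp1 replicate 2, and 0.19 and 0.18 higher in the 2xDbp1 libraries, on the log2 scale. Without Dbp1 replicate 1 the list's median was +0.18 and 0 members passed in limma, and without Dbp1 replicate 2 it was +0.56 and 24 passed.

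The same library set the tricarboxylic acid cycle apart. Of 24 genes, MDH1, mitochondrial malate dehydrogenase, passed, with 531 and 446 RPKM in Dbp1, 410 and 400 RPKM in 2xDbp1, and 310 and 313 RPKM in Ded1 (+0.64, limma adjusted p = 0.0258). The median was +0.39, and Dbp1 replicate 1 exceeded replicate 2 in 23 genes. It was +0.15 with 0 called without Dbp1 replicate 1 and +0.68 with 14 called without Dbp1 replicate 2. SDH2, a succinate dehydrogenase subunit, had 444 and 259 RPKM in Dbp1 and 161 and 178 RPKM in Ded1 (+0.99, adjusted p = 0.0668). ICL1, isocitrate lyase of the glyoxylate cycle, had 45.4 and 5.51 RPKM in Dbp1 and 1.57 and 3.50 RPKM in Ded1 (+2.36, adjusted p = 0.151). Its high value thus came from a single library. Mitochondrial ribosomal proteins had a median of +0.20, with 72 of 74 positive, and Dbp1 replicate 1 exceeded replicate 2 in 72 of the 74. The 2 called are near the 2.42% called higher over all genes. Of these 2, RSM19 had 256 and 236 RPKM in Dbp1 and 175 and 172 RPKM in Ded1 (+0.50, adjusted p = 0.0314). The other, MRP8, is listed there by the pattern of its name and is not a mitochondrial ribosomal protein. Without Dbp1 replicate 1 the list's median was +0.11.

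**Figure D4:**
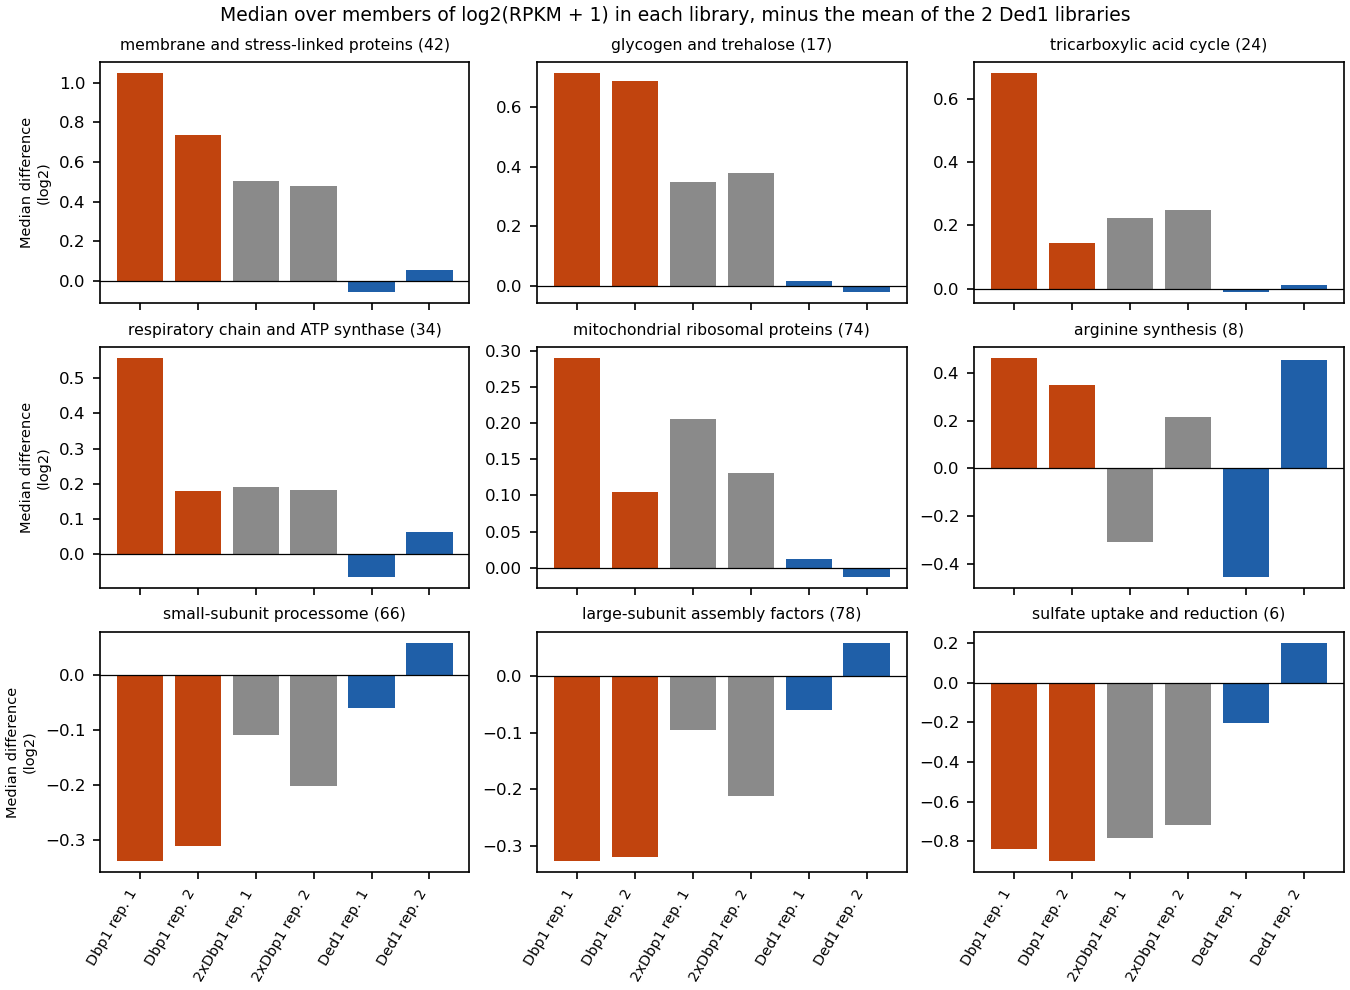
For each of 9 gene lists (number of tested members in brackets), bars give the median over members of log2(RPKM + 1) in a library minus the mean of the 2 Ded1 libraries (y axis, log2 units), with Dbp1 libraries in orange, 2xDbp1 in grey and Ded1 in blue. Dbp1 replicate 1 stands apart from replicate 2 for the tricarboxylic acid cycle and the respiratory chain, while the Dbp1 bars are nearly equal for glycogen and trehalose, ribosome assembly and sulfate reduction; for arginine synthesis the 2 Ded1 libraries differ most.

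Genes of the vacuole and of selective autophagy, which deliver and break down cell contents, included 4 that rose among 24 tested, and 0 that fell (median +0.40, 22 positive). Over all genes, 2.42% were called higher. PEP4, proteinase A, had 475 and 447 RPKM in Dbp1 and 304 and 326 RPKM in Ded1 (+0.55, limma adjusted p = 0.0243). PRB1, proteinase B, had 184 and 165 RPKM in Dbp1 and 103 and 108 RPKM in Ded1 (+0.72, adjusted p = 0.0177). APE1, an aminopeptidase that reaches the vacuole by its own transport route, had 125 and 115 RPKM in Dbp1 and 57.9 and 66.7 RPKM in Ded1 (+0.94, adjusted p = 0.0139). ATG19, the receptor that carries Ape1 there, had 13.6 and 13 RPKM in Dbp1 and 7.74 and 8.28 RPKM in Ded1 (+0.67, adjusted p = 0.0292). For each of these 4 genes all replicates were close and the 2xDbp1 libraries lay between. Without Dbp1 replicate 1 or Ded1 replicate 1, 0 members passed in limma.

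Several genes for the synthesis of sulfur amino acids fell in Dbp1. Yeast takes up sulfate, reduces it to sulfide in several steps, and joins the sulfide to a carbon chain made from homoserine. All 6 tested genes of sulfate reduction (median -0.89) had both Dbp1 libraries below both Ded1 libraries, against 26.1% of all genes. Of the 6, 2 fell, against 0.89% of all genes called lower. MET14, which phosphorylates activated sulfate, had 14.8 and 10.8 RPKM in Dbp1, 16.4 and 17.1 RPKM in 2xDbp1, and 26.0 and 27.6 RPKM in Ded1 (-1.02, SE 0.15, limma adjusted p = 0.0206). MET5, a sulfite reductase subunit, had 14.7 and 16.7 RPKM in Dbp1, 16.6 and 16.9 RPKM in 2xDbp1, and 30.7 and 53.6 RPKM in Ded1 (-1.32, adjusted p = 0.0372). The Dbp1 and 2xDbp1 libraries lay close together for MET5, and the Ded1 libraries far apart. MET10, the other subunit of sulfite reductase, had 16.5 and 17.4 RPKM in Dbp1 and 24.4 and 40.9 RPKM in Ded1 (-0.86, adjusted p = 0.082). MET16, which acts just before it, had 11.2 and 10.3 RPKM in Dbp1 and 15.8 and 28.5 RPKM in Ded1 (-0.92, adjusted p = 0.0916). Ded1 replicate 2 was the higher Ded1 library in 5 of the 6 genes. The list's median was -0.58 without Ded1 replicate 2 and -1.15 without Ded1 replicate 1.

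Of 18 tested genes of the methionine cycle, 5 fell and 0 rose (median -0.22), against 0.89% of all genes called lower. Ded1 replicate 2 exceeded replicate 1 in 15 of the 18, against 3108 of the 4830 genes tested. MET2, which activates homoserine, had 7.20 and 7.34 RPKM in Dbp1, 8.40 and 8.34 RPKM in 2xDbp1, and 18.1 and 18.9 RPKM in Ded1 (-1.24, SE 0.11, limma adjusted p = 0.00418). MET17, which joins sulfide to that product, had 168 and 201 RPKM in Dbp1, 206 and 201 RPKM in 2xDbp1, and 410 and 535 RPKM in Ded1 (-1.35, adjusted p = 0.00894). MET6, methionine synthase, had 197 and 244 RPKM in Dbp1 and 354 and 438 RPKM in Ded1 (-0.84, adjusted p = 0.034). For MET2 and MET17 the 2xDbp1 libraries lay near those of Dbp1 rather than halfway, and both calls held in every alternative that tested them. MHT1, which makes methionine from S-methylmethionine, had 4.72 and 7.80 RPKM in Dbp1 and 17.2 and 20.3 RPKM in Ded1 (-1.47, adjusted p = 0.0292). MMP1, the permease for S-methylmethionine and the neighbour of MHT1 on the chromosome, had 2.5 and 4.0 RPKM in Dbp1 and 9.24 and 9.56 RPKM in Ded1 (-1.31, adjusted p = 0.0356). The calls of MET5, MET6, MET14, MHT1 and MMP1 ended without either 2xDbp1 library. The genes that consume methionine did not pass, among them SAM1, S-adenosylmethionine synthetase, with 646 and 832 RPKM in Dbp1 and 882 and 992 RPKM in Ded1 (-0.35, adjusted p = 0.182). Transsulfuration genes and the Met4 regulators had 0 calls in limma among 11 (median -0.21).

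Enzymes that touch methionine or glutathione were also among the lower genes. MXR1, which reduces oxidised methionine, had 80.5 and 99.0 RPKM in Dbp1, 131 and 98.1 RPKM in 2xDbp1, and 181 and 196 RPKM in Ded1 (-1.07, SE 0.16, limma adjusted p = 0.0243). MXR2, which reduces the opposite stereoisomer in mitochondria, had 103 and 95.3 RPKM in Dbp1 and 93.5 and 90.3 RPKM in Ded1 (+0.11, adjusted p = 0.482). GRX8, a glutaredoxin, had 32.8 and 36.0 RPKM in Dbp1 and 67.3 and 72.3 RPKM in Ded1 (-1.0, adjusted p = 0.00894). DUG3, which helps to degrade glutathione, had 20.3 and 23.0 RPKM in Dbp1 and 31.7 and 34.0 RPKM in Ded1 (-0.58, adjusted p = 0.0356). Of the methionine salvage pathway, MEU1 had 119 and 116 RPKM in Dbp1 and 159 and 151 RPKM in Ded1 (-0.39, adjusted p = 0.0487), and ADI1 had 72.3 and 69.3 RPKM in Dbp1 and 97.5 and 95.5 RPKM in Ded1 (-0.44, adjusted p = 0.0366). Among 30 tested antioxidant enzymes GRX8 was the 1 that fell, while AHP1 and CTT1 rose. Over all genes, 0.89% were called lower and 2.42% higher. CTT1, the cytosolic catalase, had 19.7 and 15.4 RPKM in Dbp1, 3.19 and 6.4 RPKM in 2xDbp1, and 2.19 and 3.32 RPKM in Ded1 (+2.31, adjusted p = 0.0166).

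Other genes that fell encode transporters and single enzymes. ITR2, an inositol transporter, had 9.36 and 7.22 RPKM in Dbp1 and 17.4 and 15.2 RPKM in Ded1 (-0.90, limma adjusted p = 0.0292). ATF1, an alcohol acetyltransferase that makes fruity esters, had 3.12 and 2.93 RPKM in Dbp1 and 8.78 and 10.3 RPKM in Ded1 (-1.39, adjusted p = 0.00894). AAH1, adenine deaminase, had 108 and 99.0 RPKM in Dbp1, 160 and 130 RPKM in 2xDbp1, and 167 and 161 RPKM in Ded1 (-0.66, adjusted p = 0.0366). It was the 1 call among 23 genes of purine synthesis and one-carbon metabolism, against 0.89% of all genes called lower. PSA1, which makes the GDP-mannose used to build mannoproteins, had 817 and 852 RPKM in Dbp1 and 1199 and 1084 RPKM in Ded1 (-0.45, adjusted p = 0.042). INA1 had 241 and 239 RPKM in Dbp1 and 396 and 357 RPKM in Ded1 (-0.65, adjusted p = 0.0292). The Dbp1 and Ded1 libraries did not overlap for any of them, which the choice of ITR2, AAH1 and INA1 required.

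Genes of ribosome assembly had small negative log2 fold changes. Yeast ribosomes are put together in the nucleolus by a small-subunit processome and a set of large-subunit assembly factors. All 66 tested processome genes and all 78 large-subunit factors had a negative log2 fold change, against 49.2% of all genes, with a median of -0.33 in each list. Both Dbp1 libraries lay below both Ded1 libraries in 64 and 74 of them, against 26.1% of all genes. Of the processome, 3 genes fell and 63 did not pass, against 0.89% of all genes called lower. LCP5 had 76.0 and 85.4 RPKM in Dbp1, 103 and 95.1 RPKM in 2xDbp1, and 113 and 128 RPKM in Ded1 (-0.57, SE 0.10, limma adjusted p = 0.0416), and UTP22 had 45 and 43 RPKM in Dbp1 and 61.2 and 58.0 RPKM in Ded1 (-0.43, adjusted p = 0.0437). Of the large-subunit factors, 6 fell and 72 did not pass, against the same 0.89%. DBP2, a DEAD-box helicase that also acts in mRNA packaging, changed most, with 235 and 236 RPKM in Dbp1, 317 and 296 RPKM in 2xDbp1, and 362 and 394 RPKM in Ded1 (-0.68, adjusted p = 0.014). NMD3, the export adaptor of the large subunit, had 114 and 117 RPKM in Dbp1 and 149 and 158 RPKM in Ded1 (-0.41, adjusted p = 0.0437). The medians lay between -0.26 and -0.38 whichever Dbp1 or Ded1 library was left out, although 0 to 3 members of each list then passed in limma.

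Related machinery had mostly negative log2 fold changes too. All 28 tested subunits and factors of RNA polymerases I and III had a negative log2 fold change (median -0.27), and 1 fell, RPA190, the largest subunit of polymerase I, with 128 and 123 RPKM in Dbp1 and 162 and 173 RPKM in Ded1 (-0.41, limma adjusted p = 0.0478). Of 32 genes that modify or process tRNA, 2 fell and 30 were negative (median -0.26). Over all genes, 0.89% were called lower. NCS2, which places sulfur on the wobble base of tRNA, had 20.6 and 23.1 RPKM in Dbp1 and 34.1 and 36.0 RPKM in Ded1 (-0.66, adjusted p = 0.0338). TRM11, a tRNA methyltransferase, had 41.4 and 43.0 RPKM in Dbp1 and 64.4 and 60.3 RPKM in Ded1 (-0.55, adjusted p = 0.0279). BMT6, which methylates the large ribosomal RNA, had 19.3 and 18.2 RPKM in Dbp1 and 26.7 and 32.3 RPKM in Ded1 (-0.62, adjusted p = 0.0471). TOD6, a repressor of ribosome assembly genes, was lower as well, with 35.2 and 37.2 RPKM in Dbp1 and 50.0 and 54.8 RPKM in Ded1 (-0.52, adjusted p = 0.0338). The tRNA synthetases had 0 calls in limma among 21 (median -0.17), with 20 negative. In 18, both Dbp1 libraries lay below both Ded1 libraries, against 26.1% of all genes.

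**Figure D5:**
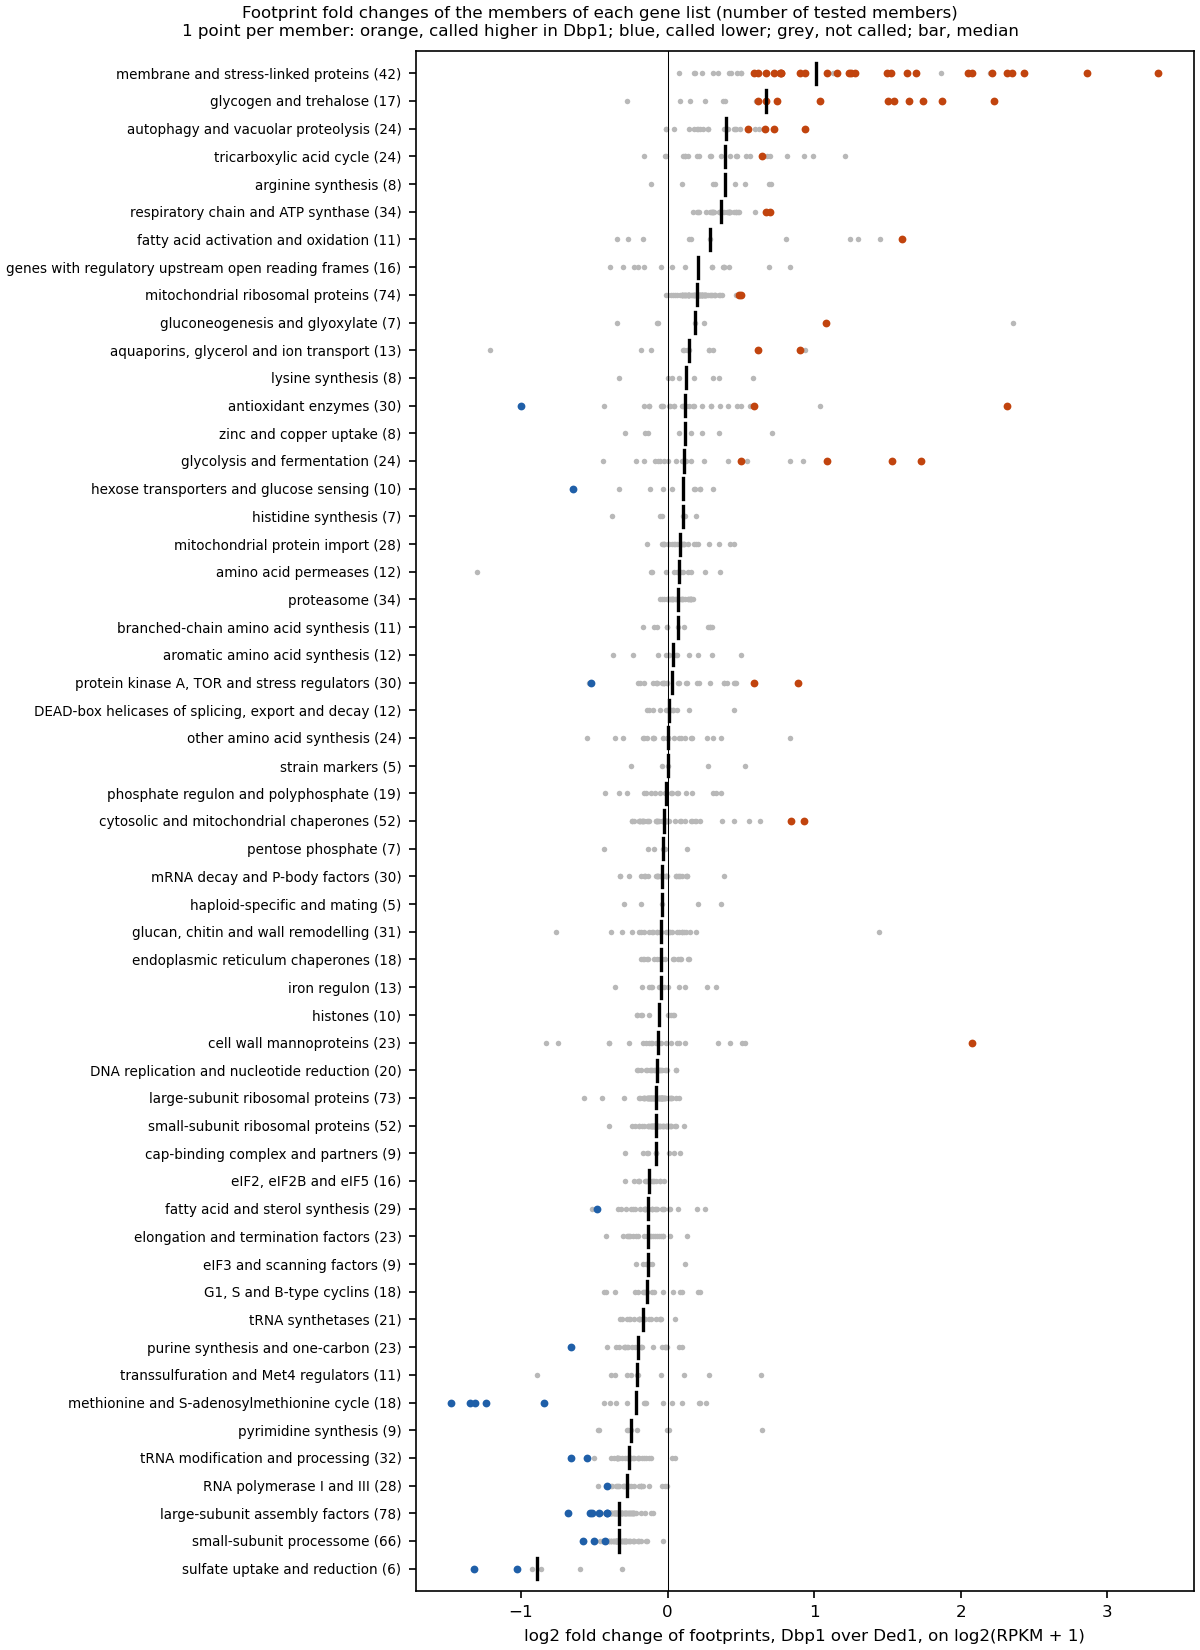
Log2 fold changes of footprints, Dbp1 over Ded1 (x axis), for the tested members of each list with at least 5 (y axis, number in brackets), with 1 point per member, called genes in orange (higher) or blue (lower) and the median as a bar. Stress-linked and storage genes spread far to the right, while the points for the processome and large-subunit assembly factors form narrow bands around -0.33.

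The translation machinery itself had 0 calls, against 3.31% of all genes called in either direction. In lists as short as 9 genes, 0 calls is near that share. Most genes of the translation machinery had small negative log2 fold changes. Ribosomal proteins had 0 calls in limma among 73 large-subunit and 52 small-subunit genes, with a median of -0.08 in each, and pairs of near-identical genes may share reads there. Of these genes, 65 and 44 were negative, and 20 and 23 had both Dbp1 libraries below both Ded1 libraries, against 26.1% of all genes. Among initiation factors, 0 of 9 cap-binding genes (median -0.08), 0 of 9 genes of eIF3 and scanning (median -0.14) and 0 of 16 genes of eIF2, eIF2B and eIF5 (median -0.13) passed in limma. All 16 genes of eIF2, eIF2B and eIF5 were negative, and in 13 both Dbp1 libraries lay below both Ded1 libraries. The same held for 7 of the 9 genes of eIF3 and scanning and for 5 of the 9 cap-binding genes. Elongation and termination factors had 0 calls among 23 (median -0.14), with 21 negative and 16 below without overlap. The 12 other DEAD-box and related helicases had 0 calls (median +0.01, from -0.14 to +0.46). Genes with regulatory upstream open reading frames, whose translation depends on how the small subunit scans the leader, had 0 calls among 16 and a median of +0.21. Over all genes, 1133 had an unadjusted p under 0.05, which is 23.5%.

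Of 52 cytosolic and mitochondrial chaperones, 2 rose and 0 fell (median -0.03), which is near the 2.42% called higher over all genes. HSP78, the disaggregase of mitochondria, had 97.4 and 109 RPKM in Dbp1 and 49.2 and 58.2 RPKM in Ded1 (+0.93, limma adjusted p = 0.0139). SSE2, an Hsp110 exchange factor, had 31.0 and 29.8 RPKM in Dbp1 and 16.4 and 16.6 RPKM in Ded1 (+0.84, adjusted p = 0.0166). HSP104, the cytosolic disaggregase, had 119 and 140 RPKM in Dbp1 and 93.7 and 73.4 RPKM in Ded1 and did not pass (+0.63, adjusted p = 0.0962). Chaperones of the endoplasmic reticulum (18 genes, median -0.04), the proteasome (34 genes, median +0.07) and histones (10 genes, median -0.06) had 0 calls in limma, against 3.31% of all genes called in either direction. In the synthesis of amino acids other than those with sulfur, the 2 Ded1 libraries differed, as they did for sulfate reduction and the methionine cycle. Ded1 replicate 2 exceeded replicate 1 in all 8 genes of arginine, all 8 of lysine, all 7 of histidine, 10 of 11 of branched-chain, 10 of 12 of aromatic and 22 of 24 of other amino acid synthesis, against 3108 of the 4830 genes tested. Summed RPKM was higher in replicate 2 of 2xDbp1 too, with 1570 and 2411 for arginine, 891 and 1170 for lysine and 1381 and 1787 for histidine. In Dbp1 these sums were 3035 and 2574 for arginine, 1220 and 1262 for lysine and 1772 and 2170 for histidine. All of these lists had 0 calls in limma. The 8 arginine genes had a median of +0.39, but of -0.07 without Ded1 replicate 1 and +0.92 without Ded1 replicate 2. For histidine these medians were +0.10, -0.26 and +0.37, and for lysine +0.13, -0.11 and +0.34. ARG3 had 133 and 106 RPKM in Dbp1 and 67.6 and 182 RPKM in Ded1 (+0.10, adjusted p = 0.926), so the 2 Ded1 libraries enclosed both Dbp1 libraries.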

How the data were processed

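Ribosome footprints and mRNA were sequenced in 12 libraries, and the 6 footprint libraries were used here. The authors deposited values that behave as RPKM, 1 column per library. The unit is not named in the labels and was read from the values: times gene length minus 60 nt, 86.8% to 87.8% of values up to 200 reads were whole within 0.02 reads. CASAVA, Bowtie2 and bcl2fastq 2.17 are listed as tools, per the submitters' processing notes. How reads were counted, and on which genome build and annotation, is not given in the sources used here. Of 6159 gene IDs, 5637 matched the R64 gene table, used for names, lengths and neighbours. Promoter and protein sequences were not used here.

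The logarithm log2(RPKM + 1) of each deposited value was modelled by genotype over the 6 footprint libraries, using limma 3.58.1 with a trended prior variance (R 4.3.3). The contrast was Dbp1 minus Ded1, 2-sided, with Benjamini-Hochberg adjustment over 4830 genes with a mean of at least 5 RPKM. The fit was tested on simulated data. Tables and plots used Python 3.11.15, pandas 2.3.3, numpy 2.4.6 and matplotlib 3.10.9. Groups came from titles and genotype labels. The genes named are DED1 and DBP1, the 15 largest increases and decreases among called genes with a mean of at least 10 RPKM, no overlap between genotypes, a gene name and no overlapping coding gene, and from each of the 57 lists up to 6 called members or the 2 with the lowest p; others, such as ATF1, PSA1 and the paralogs of called genes, were chosen after their values were seen. Lists were described by counts and medians and not tested. The genes and lists were chosen with earlier results of these data known. The 14 alternatives were other pseudocounts, filters, scaling, libraries in the fit, variance prior, a replicate block and each library left out.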

Additional observations from a re-analysis of the deposited data

How the results depend on the processing

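Of 160 calls, 117 higher and 43 lower, other pseudocounts, a filter at 20 RPKM and rescaled libraries left 146 to 178. With no filter 96 genes passed (77 higher, 19 lower), with the 4 compared libraries alone 44 (35 higher, 9 lower), and with no trend in the prior variance 111, of which 24 were lower. Leaving out 1 library gave 22 to 245 calls, 15 to 213 higher and 7 to 32 lower, and each lone library was then taken to vary like the other genotypes. Fewer libraries also leave fewer degrees of freedom, and the cause of each change was not tested. All 160 genes kept their sign in every alternative that fitted them. Of the genes named that were not called, RTN1 ran from -0.0286 to 0.0562 and ARG3 from -0.6129 to 0.8048 on the log2 scale with 1 library left out. At 5 RPKM, depth limits short genes most.

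The replicate block was tried as well, although the labels do not say whether the replicate numbers pair the samples. Same-numbered libraries deviated from their group means with correlations of 0.181 between Dbp1 and Ded1, -0.071 between Dbp1 and 2xDbp1, and 0.344 between Ded1 and 2xDbp1. With the block 143 genes passed (108 higher and 35 lower), and 126 of these were among the 160.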

Other observations

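Of the 160 called genes, 79 belong to none of the 57 lists used, and the groups in this section were picked after their values were seen, so they are descriptions only. Several higher genes act in the assembly or upkeep of mitochondrial complexes. COA4, needed for cytochrome oxidase assembly, had 74.4 and 81.4 RPKM in Dbp1 and 46.3 and 53.5 RPKM in Ded1 (+0.64, limma adjusted p = 0.0292). COX20, a chaperone of a cytochrome oxidase subunit, had 78.8 and 75.5 RPKM in Dbp1 and 51.1 and 56.9 RPKM in Ded1 (+0.51, adjusted p = 0.0429). RCF1, which helps respiratory supercomplexes to form, had 152 and 150 RPKM in Dbp1 and 102 and 104 RPKM in Ded1 (+0.55, adjusted p = 0.0225). In these 3 genes the Dbp1 replicates lay close together, unlike those of most respiratory subunits. Both alkaline ceramidases were higher as well, YPC1 with 25.5 and 27.4 RPKM in Dbp1 and 14.6 and 16.3 RPKM in Ded1 (+0.74, adjusted p = 0.0178), and YDC1 with 87.4 and 78.2 RPKM in Dbp1 and 60.4 and 55.1 RPKM in Ded1 (+0.51, adjusted p = 0.0474). So were both enzymes that repair damaged NAD(P)H, NNR2 with 93.2 and 79.5 RPKM in Dbp1 and 35.5 and 39.6 RPKM in Ded1 (+1.18, adjusted p = 0.00577), and NNR1 with 39.0 and 32.6 RPKM in Dbp1 and 20.6 and 24.1 RPKM in Ded1 (+0.66, adjusted p = 0.0437).

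In several pairs of isozymes 1 member was called and the other was not, and the difference between members was not tested. GSP2, a Ran GTPase of nuclear transport, had 126 and 74.0 RPKM in Dbp1 and 39.3 and 41.1 RPKM in Ded1 (+1.24, limma adjusted p = 0.0427), and the abundant GSP1 had 1880 and 1957 RPKM in Dbp1 and 2163 and 2146 RPKM in Ded1 (-0.17, adjusted p = 0.214), with reads that may be shared. CYC7, the low-oxygen cytochrome c, had 145 and 139 RPKM in Dbp1 and 30.2 and 61.4 RPKM in Ded1 (+1.7, adjusted p = 0.0435), and CYC1 had 4102 and 3810 RPKM in Dbp1 and 3140 and 3691 RPKM in Ded1 (+0.22, adjusted p = 0.255). FAA1, the main long-chain acyl-CoA synthetase, had 396 and 286 RPKM in Dbp1 and 90.9 and 134 RPKM in Ded1 (+1.6, adjusted p = 0.0243). FAA4 had 246 and 233 RPKM in Dbp1 and 317 and 291 RPKM in Ded1, a fold change of opposite sign that did not pass (-0.34, adjusted p = 0.0803). Among the called genes 7 pairs were neighbours on the chromosome, each with 1 direction. These were RCR1 with UGA2, YCL042W with GLK1, HBT1 with FMP45, GPD1 with GPM2, HSP78 with YAP6, PRB1 with SOM1, and MHT1 with MMP1. Whether 7 pairs exceed what 160 called genes would give by their number was not tested. Since 117 of the 160 were called higher, a shared direction is common among them in any case.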
